A study of Mus musculus with 40 samples.

Results

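Blocking antibodies against the GARP:TGF-β1 complex and against PD-1 were given to tumor-bearing mice alone and together, and the question here was whether their joint effect on the tumor transcriptome differed from the sum of the single effects. The quantity examined was the interaction of a 2 by 2 design. For each gene it was the log2 change in expression on adding anti-GARP:TGF-β1 to anti-PD-1, minus the log2 change on adding anti-GARP:TGF-β1 to an isotype control. It involved 30 of the 40 mice of the series, with 5 mice given 'mIgG2a - Isotype control' (motavizumab), 5 given 'anti-PD1 FcS', 10 given anti-GARP:TGF-β1 alone and 10 given the combination. The anti-GARP groups pooled 2 formats of clone 58A2, a mouse IgG2a of wild-type Fc ('anti-GARP:TGFb WT') and one with an Fc-dead Fc that does not bind Fc receptors ('anti-GARP:TGFb FcD'), with 5 mice in each format with and without anti-PD-1. The anti-PD-1 antibody was Fc silent. All mice were BALB/c, 6 to 12 weeks old, and carried subcutaneous tumors from 1000000 injected cells of CT26, a transplantable colon carcinoma line. Antibodies were injected on days 6, 9 and 12, and tumor fragments were taken on day 13 for stranded mRNA sequencing. The other 10 mice, given anti-TGF-β (clone 1D11) with or without anti-PD-1, entered the model and served as a comparison.

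GARP, encoded by Lrrc32, is a membrane protein of activated regulatory T cells that holds latent TGF-β1 on the cell surface, from which active TGF-β1 is released. The authors also report GARP in blood vessel walls of human tissue, and tumor Lrrc32 was not assigned to a cell type here. TGF-β1 restrains the proliferation and effector function of T cells. PD-1, encoded by Pdcd1, is an inhibitory receptor of activated T cells, and its ligand PD-L1, encoded by Cd274, is induced on tumor and myeloid cells by interferon-γ. The 2 antibodies thus act on different inhibitory signals, and an interaction above 0 means that a gene was higher with both than the single effects add up to on the log2 scale.

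The 30 libraries held between 11931730 and 20680548 counted reads each, with a median of 14076765.5. Across all libraries the intestinal transcription factor Cdx2 averaged 2.13 log2 CPM (read counts per 1000000 counted reads, with TMM-scaled library sizes), the epithelial genes Krt18, Krt8 and Epcam averaged 3.46, 0.82 and -0.20, and Ptprc, which encodes the pan-leukocyte protein CD45, averaged 7.24. Libraries numbered 41 to 60 carried Y-linked transcripts and those numbered 61 to 80 carried Xist, and each treatment group had 2 or 3 libraries in each part. Some libraries stood apart from their groups. Library 52 (anti-PD-1) was high in T cell, macrophage and skeletal muscle genes, library 47 (anti-PD-1) was low in interferon-response genes and high in adipocyte, endothelial and B cell genes, and library 77 (WT with anti-PD-1) was the highest of the combination mice in T cell genes. Values without them are given beside many of the counts and genes that they moved, and more counts without 1 mouse stand in the last section. Since whole tumor fragments were sequenced, fewer cells of a type and less RNA per cell cannot be told apart.

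No gene passed an adjusted p of 0.05 for the interaction. Of 14760 genes tested with edgeR's quasi-likelihood test, 0 were called after Benjamini-Hochberg adjustment (0.0%), and the smallest adjusted p was 0.485. At an unadjusted p under 0.05, 733 genes were higher (4.97%) and 620 were lower (4.2%) than the single effects add up to. limma-trend also called 0 genes. DESeq2 called 1, the skeletal muscle myosin gene Myh1, with an adjusted p of 0.0128, which had counts in 10 of the 40 libraries and reached 241 reads in library 52. The median standard error of the interaction was 0.191 log2, and the median interaction over all genes was 0.0034, with 7450 genes above 0. The interaction was therefore not resolved for single genes, and the estimates described below are sizes with errors and not calls.

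The 4 sides of the design differed widely in how many genes passed the test. Adding anti-PD-1 to anti-GARP mice, a comparison of 10 with 10 mice, raised 2280 genes (15.4%) and lowered 1759 genes (11.9%) at an adjusted p under 0.05. Adding anti-PD-1 to isotype mice, 5 against 5, gave 0 genes by edgeR and by limma-trend at that threshold and 141 (0.955%) at an unadjusted p under 0.05, and DESeq2 called only Myh1. Adding anti-GARP to isotype mice gave 0 genes by edgeR and by limma-trend and 103 (0.698%) at an unadjusted p under 0.05, and DESeq2 again called only Myh1. Adding anti-GARP to anti-PD-1 mice gave 0 genes by edgeR and limma-trend, with a smallest adjusted p of 0.0576, while 1783 were higher (12.1%) and 1209 lower (8.19%) at an unadjusted p under 0.05, and DESeq2 called 11. Without library 52, this last comparison called 577 genes higher (3.91%) and 265 lower after adjustment. The sides have unequal numbers of mice, with median standard errors of 0.11 log2 for anti-PD-1 with anti-GARP, 0.156 for anti-PD-1 alone and 0.135 for the anti-GARP effects. They also share mice, and the count of one side against another is not a test of the interaction. In a model with a separate mean for each group in each part of the libraries, adding anti-PD-1 to anti-GARP mice called 2522 genes higher and 2253 lower in libraries 61 to 80 and 0 in libraries 41 to 60, where 327 were higher and 399 lower at an unadjusted p under 0.05. The test of the difference between the parts called 0 genes for this effect (575 higher and 711 lower at an unadjusted p under 0.05, smallest adjusted p 0.529) and 0 for the interaction (254 and 161, smallest adjusted p 1).

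**Figure D1:**
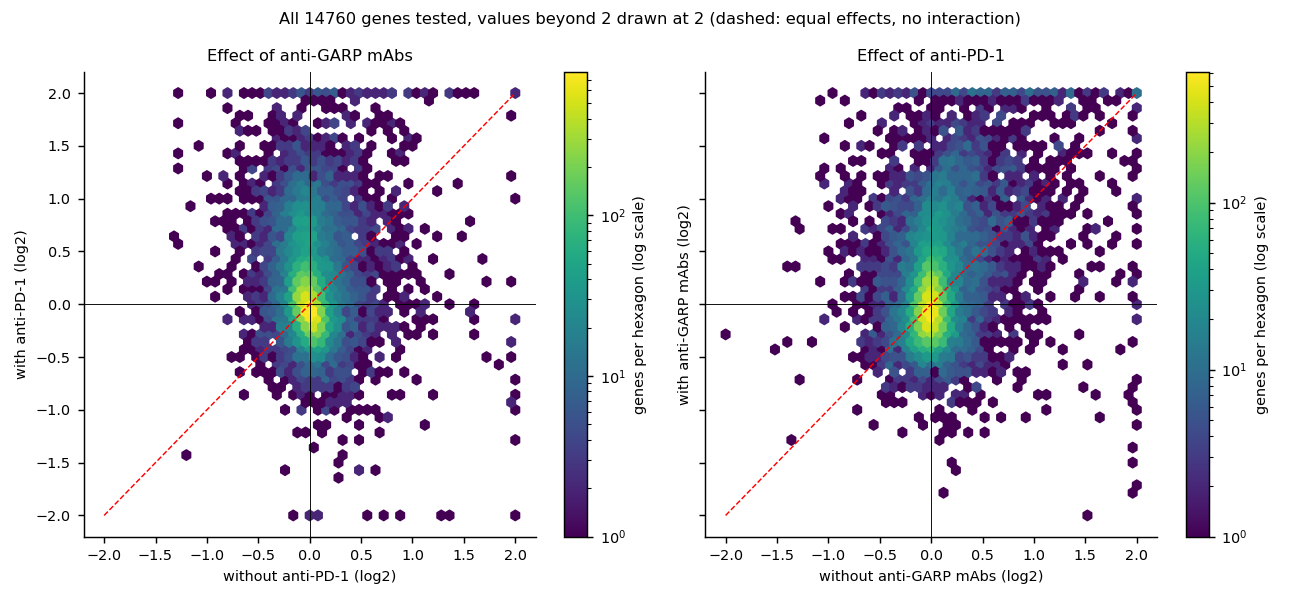
Each gene's log2 effect of anti-GARP:TGF-β1 without (x axis) and with (y axis) anti-PD-1, and each gene's log2 effect of anti-PD-1 without and with anti-GARP:TGF-β1, as hexagon counts over 14760 genes with values beyond 2 log2 units drawn at the edge. The dashed line marks no interaction, and the cloud is wider along the y axis than along the x axis in both panels.

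The molecules that the antibodies target had wide errors. Lrrc32 (ENSMUSG00000090958, chromosome 7, 98489283-98502181, GRCm38) stood at 4.64, 5.75, 5.07, 3.22 and 1.66 CPM in the isotype mice and at 8.49, 5.79, 3.5, 5.9 and 3.68 CPM in the anti-PD-1 mice. It spanned 3.09 to 9.28 CPM (median 3.94) with anti-GARP alone and 2.36 to 13.8 CPM (median 6.01) in the combination. The 4 sets overlapped, and the interaction of Lrrc32 was 0.21 ± 0.54 log2 (SE), with an adjusted p of 0.859. Tgfb1 itself gave 0.18 ± 0.20 and 0.031 without library 77, and Foxp3, the transcription factor that defines regulatory T cells, gave -0.041 ± 0.55. Without library 77 the interaction of Lrrc32 was -0.055. Of the other genes of the regulatory T cell list, the costimulatory receptor Icos and the IL-2 receptor chain Il2ra, gave 1.87 ± 0.84 and 1.07 ± 0.49. Of the 15 members of that list tested, 2 were higher and 0 lower at an unadjusted p under 0.05, beside 4.97% of all genes higher, and the list median was 0.69. The count was 7 without library 52 and 0 without library 77, against 10.8% and 2.53% of all genes.

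The PD-1 axis had larger estimates. Cd274 (ENSMUSG00000016496, chromosome 19, 29367455-29388095), which encodes PD-L1, measured 124.0, 101.0, 71.9, 63.6 and 58.5 CPM in isotype mice and 19.3, 213.0, 54.9, 141.0 and 100.0 CPM in anti-PD-1 mice, where library 47 was the lowest and library 52 the highest. With anti-GARP alone it ranged from 25.5 to 108.0 CPM (median 73.4), and in the combination from 109.7 to 292.0 CPM (median 200.1). Every combination mouse lay above every mouse given anti-GARP alone, while 4 of 10 lay above every anti-PD-1 mouse. Its interaction was 1.14 ± 0.50 (adjusted p = 0.485). Adding anti-PD-1 raised it by 1.47 ± 0.29 with anti-GARP (adjusted p = 0.00656), and the estimate was 0.33 ± 0.41 without. Pdcd1 gave an interaction of 1.64 ± 0.76, which was 2.51 without library 52 and 1.05 without library 77. It stood at 6.65 to 14.4 CPM (median 10.1) in isotype mice and at 1.07 to 11.9 CPM in anti-PD-1 mice. In the combination it spanned 3.24 to 46.3 CPM (median 6.2). The combination minus isotype was 0.064 ± 0.52 log2, and adding anti-PD-1 to isotype mice gave -1.30 ± 0.63. Havcr2, which encodes the exhaustion receptor TIM-3, gave the positive value 1.24, and it stayed between 0.94 and 1.81 when each mouse was left out in turn. All 16 members of the list of PD-1 axis and exhaustion receptors were above 0, with a median of 1.09. Of them 6 were higher at an unadjusted p under 0.05, beside 4.97% of all genes. The median was 1.5 without library 52 and 0.79 without library 77, and the members past the unadjusted threshold were then 11 and 2, against 10.8% and 2.53% of all genes.

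**Figure D2:**
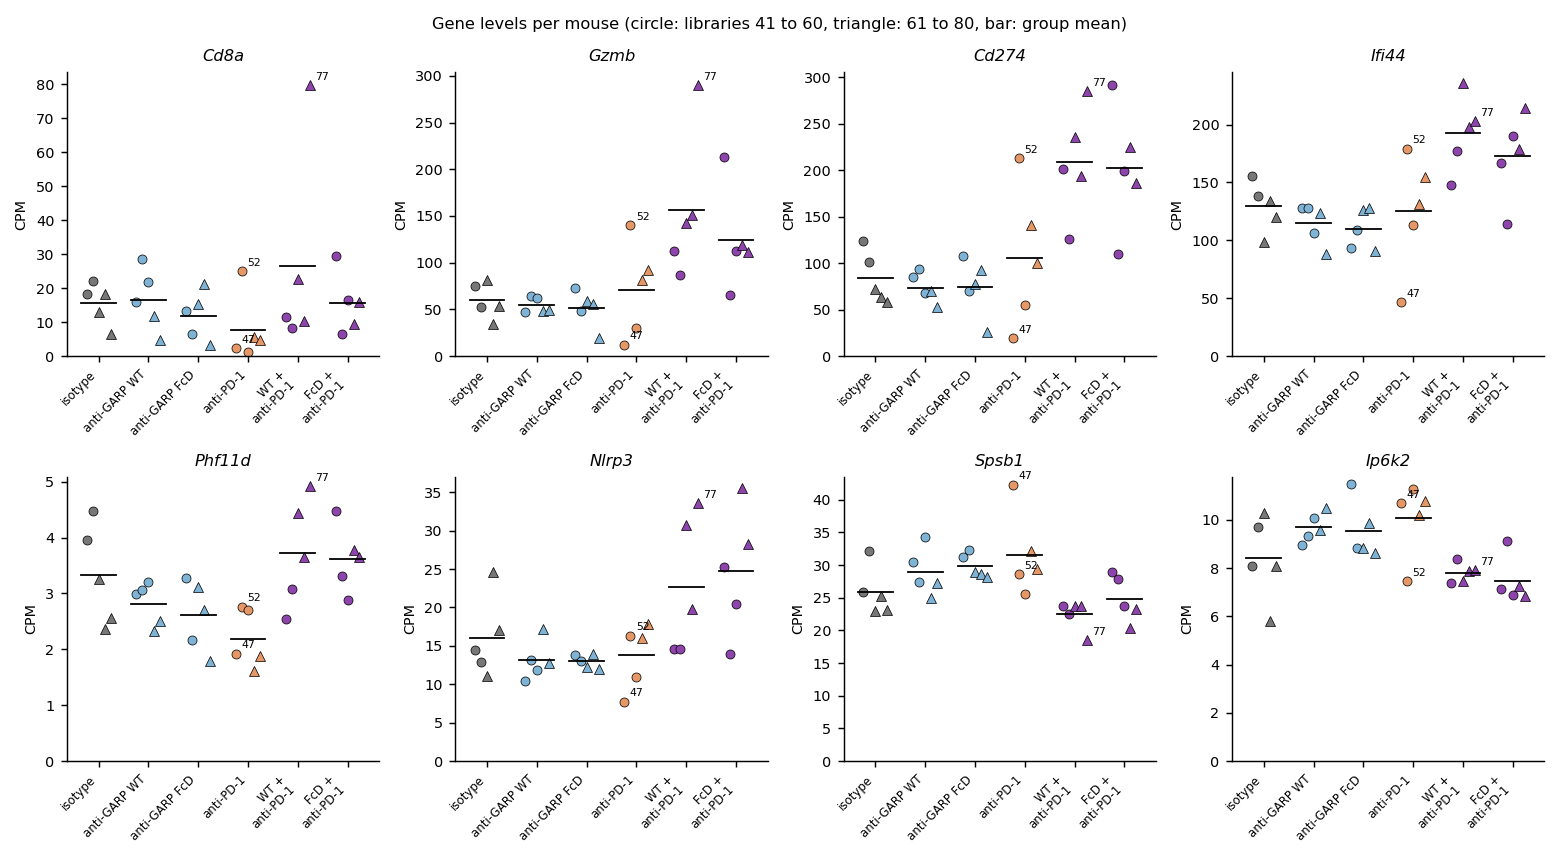
CPM of 8 genes in each of the 30 mice of the 6 groups, with a point per mouse and a bar at the group mean. Cd274 in the combination mice lies at 109.7 CPM or more, above all mice given anti-GARP:TGF-β1 alone, while Cd8a overlaps between all groups.

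Genes of T cells and their cytotoxic products had mostly positive estimates. All 18 genes of the T cell receptor complex and its coreceptors were above 0, with a median interaction of 1.24 against 0.0034 over all genes, and 6 were higher and 0 lower at an unadjusted p under 0.05, beside 4.97% of all genes higher. The 4 side medians of the list were -0.11 for anti-GARP and -0.42 for anti-PD-1 in their absence of each other, 1.18 for anti-GARP given anti-PD-1, and 0.71 for anti-PD-1 given anti-GARP. Cd8a (ENSMUSG00000053977, chromosome 6, 71373427-71379173), the coreceptor chain of cytotoxic T cells, shows what lies behind these medians. It stood at 18.2, 22.0, 12.9, 18.2 and 6.51 CPM in isotype mice and at 2.29, 24.9, 1.21, 5.6 and 4.83 CPM in anti-PD-1 mice. It spanned 3.19 to 28.5 CPM (median 14.3) with anti-GARP alone and 6.64 to 79.7 CPM (median 13.7) in the combination. In 4 of the 5 anti-PD-1 mice Cd8a was therefore below every isotype mouse, the exception being library 52, and the combination median was no higher than the isotype median of 18.2. The interaction of Cd8a was 1.52 ± 0.80 (adjusted p = 0.485). It was 2.68 without library 52 and 1.02 without library 77. Cd3g, a chain of the T cell receptor complex, and the kinase gene Zap70 gave 1.59 and 1.14 and moved with the same libraries, to 2.44 and 1.51 without library 52 and to 1.06 and 0.79 without library 77. For the list, 16 of 18 members were higher at the unadjusted threshold without library 52 (10.8% of all genes) and 0 without library 77 (2.53%), and the median was 1.76 and 0.81. After adjustment, 3 of the 18 members rose when anti-PD-1 was added to anti-GARP, a share near the 15.4% of all genes, and 0 did so without library 77.

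**Figure D3:**
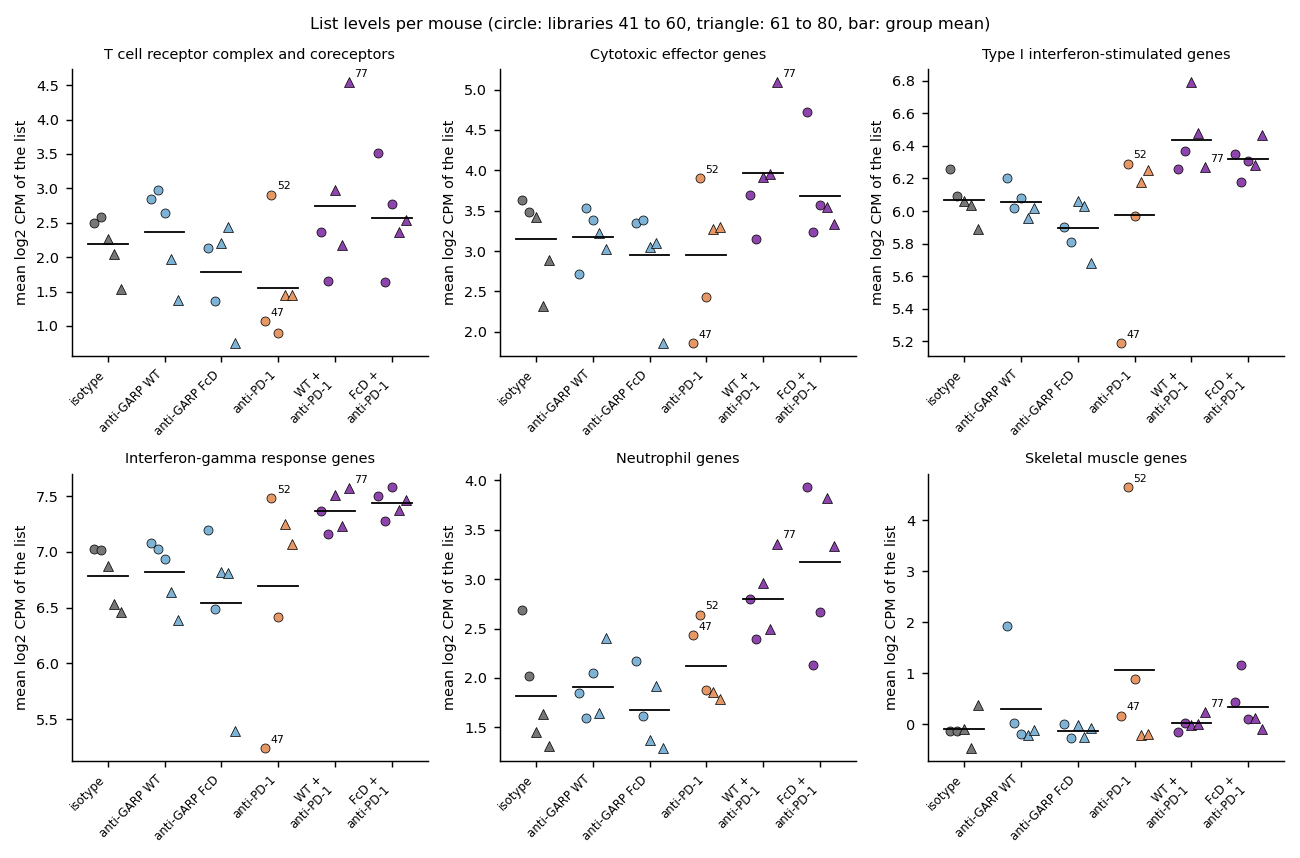
Mean log2 CPM over the tested genes of 6 lists in each mouse of the 6 groups, with circles for libraries 41 to 60, triangles for libraries 61 to 80, a bar at each group mean, and libraries 47, 52 and 77 marked. The interferon-γ response genes lie between 7.16 and 7.58 in all combination mice and between 5.24 and 7.48 in the anti-PD-1 mice.

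Cytotoxic genes had estimates of similar size. Gzmb (ENSMUSG00000015437, chromosome 14, 56258838-56262260), which encodes the protease granzyme B, stood at 75.0, 52.9, 81.8, 34.7 and 54.1 CPM in isotype mice and at 12.2, 140.0, 29.9, 81.3 and 92.6 CPM in anti-PD-1 mice. It spanned 19.8 to 73.2 CPM with anti-GARP alone and 65.6 to 290.3 CPM (median 116.0) in the combination. In 9 of 10 combination mice Gzmb was above every anti-GARP mouse, and in 4 it was above every anti-PD-1 mouse. Its interaction was 1.15 ± 0.49 (adjusted p = 0.485), and adding anti-PD-1 to anti-GARP raised it by 1.40 ± 0.28 (adjusted p = 0.00656). The pore-forming protein gene Prf1 gave 0.99 ± 0.48. Gzmk, another granzyme, had the smallest p of the cytotoxic list, with an interaction of 2.61 ± 0.92. It was 3.32 without library 52 and 1.87 without library 77. Gzmk stood at 0.623 to 2.36 CPM (median 1.89) in isotype mice and at 0.369 to 2.14 CPM in anti-PD-1 mice. In the combination it spanned 1.06 to 20.7 CPM (median 1.98), and 2 of 10 mice were above every anti-GARP mouse. Ifng, which encodes interferon-γ, gave 1.22 ± 0.59, and Tnf gave 0.84 ± 0.42. Without library 52 these were 1.89 and 1.34. Every combination mouse had more Tnf than every anti-GARP mouse, with 11.1 to 24.8 CPM against 4.38 to 10.7 CPM. Of 21 cytotoxic genes, 9 were higher and 0 lower at an unadjusted p under 0.05, beside 4.97% of all genes higher. Of these 21, 19 were above 0 and the median was 0.99. Leaving out 1 mouse at a time gave 4 to 12 higher, and 324 to 1600 over all 14760 genes. The 11 genes of the NK cell list had a median of 0.95, with 5 higher beside 4.97% of all genes, led by the receptor genes Klra7 at 1.04 and Klrc1 at 1.92. That count was 8 without library 52 and 2 without library 77, against 10.8% and 2.53% of all genes.

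Interferon-response genes lay within a narrow range in the combination mice. The mean level of 51 interferon-γ response genes lay between 7.16 and 7.58 log2 CPM in the 10 combination mice, between 5.39 and 7.2 with anti-GARP alone, and between 6.46 and 7.03 in isotype mice. It was 5.24, 7.48, 6.42, 7.25 and 7.07 in the anti-PD-1 mice, the lowest being library 47 and the highest library 52. Thus 3 of the 5 anti-PD-1 mice lay below all combination mice, and the other 2 lay within their range. The median interaction of the list was 0.55, 50 of 51 members were above 0, and 4 were higher at an unadjusted p under 0.05, beside 4.97% of all genes. That count was 27 without library 52 (10.8% of all genes) and 1 without library 47 (324 of all 14760 genes), where the median was 0.30. By contrast, 35 of the 51 rose when anti-PD-1 was added to anti-GARP (adjusted p under 0.05, against 15.4% of all genes), and 0 fell. Irf8 (chromosome 8, 120736358-120756694), a transcription factor of myeloid cells and of the interferon-γ response, gave an interaction of 0.78 ± 0.31, with 9 of 10 combination mice above every anti-GARP mouse. Nlrc5, the transactivator of MHC class I genes, gave 0.76 ± 0.33.

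The type I interferon-stimulated genes had smaller estimates. All 28 members were above 0, with a median of 0.44, and 13 were higher at an unadjusted p under 0.05, beside 4.97% of all genes. The median was 0.28 without library 47 and 0.52 without library 52. The count was 20 without library 52 (10.8% of all genes), 16 without library 77 (2.53%) and 6 without libraries 47 and 52 (1111 of all 14760 genes), and it spanned 3 to 20 when each mouse was left out in turn. Ifi44 (chromosome 3, 151730922-151749960), an interferon-induced gene, stood at 156.0, 138.0, 98.8, 134.0 and 119.8 CPM in isotype mice and at 46.6, 179.0, 113.0, 131.0 and 155.0 CPM in anti-PD-1 mice. It spanned 88.3 to 128.0 CPM with anti-GARP and 114.0 to 236.0 CPM (median 184.0) in the combination, where 9 of 10 mice exceeded every anti-GARP mouse. Its interaction was 0.75 ± 0.28 (adjusted p = 0.485), and it was 0.54 without library 47. Ifih1 (chromosome 2, 62595798-62646255), which encodes the double-stranded RNA sensor MDA5, gave 0.57 ± 0.22, with 30.7 to 73.5 CPM in anti-PD-1 mice and 50.0 to 94.0 CPM in the combination. The list's interaction median was 0.62 in libraries 41 to 60 and 0.21 in libraries 61 to 80, and that of the interferon-γ list was 0.73 and 0.30.

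Interferons act through short promoter elements, which were searched for in the genes of both lists. Windows of 250 bases before to 50 bases after the gene start were taken from RefSeq (GRCm38.p6) and were found for 9909 of the 14760 genes tested. The interferon-stimulated response element, searched on both strands by its GAAA repeat with a spacer of any 2 bases, was in 11 of 20 promoters of the type I list (55.0%), in 14 of 33 of the interferon-γ list (42.4%) and in 3.91% of all promoters of genes tested. The interferon-γ activated site, TTCNNNGAA, was in 4 of 20 and 10 of 33 promoters of these lists and in 8.45% of all promoters of genes tested. The 2 windows printed here show where the elements lie in genes described above and were picked after their values were seen, Ifih1 with 1 response element and Irf8 with 2 activated sites, each match in capitals.
Ifih1, chr2:62646206-62646505, minus strand: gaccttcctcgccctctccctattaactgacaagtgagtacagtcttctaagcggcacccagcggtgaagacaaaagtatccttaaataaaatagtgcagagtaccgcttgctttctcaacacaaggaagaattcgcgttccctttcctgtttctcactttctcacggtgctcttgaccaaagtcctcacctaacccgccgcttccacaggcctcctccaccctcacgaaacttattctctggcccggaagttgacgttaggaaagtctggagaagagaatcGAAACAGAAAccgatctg
Irf8, chr8:120736108-120736407, plus strand: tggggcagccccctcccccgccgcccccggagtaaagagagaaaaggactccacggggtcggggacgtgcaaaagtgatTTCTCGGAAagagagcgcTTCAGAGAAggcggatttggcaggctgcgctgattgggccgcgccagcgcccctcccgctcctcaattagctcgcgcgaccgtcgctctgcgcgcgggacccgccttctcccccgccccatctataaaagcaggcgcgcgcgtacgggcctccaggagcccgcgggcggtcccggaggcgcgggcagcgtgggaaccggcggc
A match says only that these letters stand in the window.

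Myeloid genes followed, with the neutrophil genes highest. Of 21 neutrophil genes 20 were above 0, the median interaction was 0.85 and 5 were higher at an unadjusted p under 0.05, beside 4.97% of all genes. The median level of the list was 1.63 log2 CPM in isotype mice, 1.74 with anti-GARP, 1.88 with anti-PD-1 and 2.88 in the combination, and the combination mice (2.13 to 3.93) overlapped the anti-PD-1 mice (1.79 to 2.64). The count of 5 ranged from 1 to 8 when each mouse was left out in turn. Adding anti-PD-1 to anti-GARP raised 16 of the 21 after adjustment, beside 15.4% of all genes, and 11 without library 77. Clec4e, a receptor for mycobacterial and damage-associated ligands on myeloid cells, stood at 10.9, 11.1, 7.15, 6.91 and 7.55 CPM in isotype mice and at 7.31, 20.8, 9.06, 9.51 and 8.73 CPM in anti-PD-1 mice. It spanned 3.85 to 11.5 CPM with anti-GARP and 12.0 to 45.0 CPM in the combination, so that all 10 combination mice exceeded all mice given anti-GARP alone. Its interaction was 1.12 ± 0.47 (adjusted p = 0.485), and that of the formyl peptide receptor gene Fpr1 was 1.6 ± 0.69. The list of monocyte chemokines and receptors had a median of 0.48 with 4 of 13 higher, beside 4.97% of all genes, led by the monocyte marker Ly6c2 at 0.92. That count ranged from 1 to 7 when each mouse was left out in turn. The dendritic cell list had a median of 0.46, which was 0.3 without library 47. It had 1 of 19 higher, the receptor gene Clec9a at 1.5 ± 0.72 (0.94 without library 77), a share near the 4.97% of all genes and a count that ranged from 0 to 4 when each mouse was left out. The macrophage list had a median of 0.71 with 5 of 21 higher and 1 lower, including the scavenger receptor Msr1 at 0.60. The macrophage median depended on single libraries and was 0.38 without library 77, where 1 gene was higher, and 0.82 without library 52, where 11 were higher. Of all genes, 2.53% and 10.8% were higher in these fits.

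Of the inflammatory lists, the IL-1 family held 1 of the 8 positive genes of smallest interaction p, which were taken among genes with a mean of at least 0 log2 CPM. Nlrp3 (ENSMUSG00000032691, chromosome 11, 59541568-59566956), the sensor of the inflammasome that activates IL-1β, stood at 14.5, 12.9, 11.1, 24.6 and 17.0 CPM in isotype mice and at 7.75, 16.3, 11, 16 and 17.9 CPM in anti-PD-1 mice. It spanned 10.4 to 17.2 CPM with anti-GARP and 14.0 to 35.6 CPM (median 22.9) in the combination, where 7 of 10 mice lay above every mouse of either single treatment set. The interaction was 1.07 ± 0.32 (adjusted p = 0.485), and it stayed between 0.87 and 1.18 when each mouse was left out in turn. Il18bp, the soluble inhibitor of IL-18, gave 1.23 ± 0.51. The IL-1 family list had a median of 0.45 with 3 of 17 higher, beside 4.97% of all genes. That count ranged from 2 to 8 when each mouse was left out. The TNF and NF-κB list had a median of 0.16 with 2 of 32 higher, a share near the 4.97% of all genes and a count that ranged from 0 to 9 when each mouse was left out, namely the feedback inhibitor Tnfaip3 at 0.47 and the NF-κB subunit Rel at 0.58. The neutrophil-attracting chemokines had a median of 0.72 and 0 of 8 members past the unadjusted threshold, and without library 46 (isotype) their median was -0.11. The IL-2 and STAT5 list had 4 of 23 members higher and 1 lower, beside 4.97% and 4.2% of all genes. The kinase Pim1 was at 0.47 and the transcription factor Myc at -0.39. The count of higher genes in this list ranged from 1 to 6 when each mouse was left out.

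The other 7 positive genes of smallest p belonged to none of the immune lists described above. Phf11d (chromosome 14, 59347407-59365470), a PHD finger protein gene, had the smallest p among them. It stood at 3.96, 4.48, 3.26, 2.36 and 2.56 CPM in isotype mice, at 1.92, 2.76, 2.71, 1.62 and 1.88 CPM in anti-PD-1 mice, at 1.79 to 3.28 CPM with anti-GARP and at 2.55 to 4.92 CPM in the combination. Both single treatments were below or within the isotype range, while the combination median of 3.65 CPM was close to the isotype median of 3.26 CPM, and 9 of 10 combination mice exceeded every anti-PD-1 mouse. The interaction was 1.04 ± 0.27 (adjusted p = 0.485). Clec2i, a C-type lectin gene, gave 1.74 ± 0.55, with 9 of 10 combination mice above every anti-PD-1 mouse. Bspry and Bzrap1 gave 1.76 and 1.21. The 3 remaining positive genes carried clone names, RP23-81C3.1 at 1.33, RP24-112H7.1 at 0.94 and RP24-225K18.6 at 1.08. Leaving out 1 mouse at a time kept all 8 positive genes above 0 with an unadjusted p under 0.05, which their choice by small p favors.

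Of the 8 negative genes of smallest p, 6 had estimates between -0.83 and -0.42, and the muscle genes Des and Mylpf had larger ones. Spsb1 (ENSMUSG00000039911, chromosome 4, 149896283-149955043), an adaptor of a ubiquitin ligase, stood at 25.9, 32.2, 23.0, 25.3 and 23.1 CPM in isotype mice and at 42.3, 28.6, 25.5, 32.2 and 29.4 CPM in anti-PD-1 mice. It spanned 24.9 to 34.3 CPM with anti-GARP and 18.5 to 29.0 CPM in the combination, where 8 of 10 mice were below every mouse of each single-treatment set. The interaction was -0.60 ± 0.15 (adjusted p = 0.485), the smallest p over all genes. Ip6k2, an inositol hexakisphosphate kinase gene, gave -0.60 ± 0.15 as well, with 5.81 to 10.3 CPM in isotype mice and 6.84 to 9.13 CPM in the combination. Rdh10, which encodes a retinol dehydrogenase of retinoic acid synthesis, gave -0.83 ± 0.23, with 9 of 10 combination mice below every anti-PD-1 mouse. Gas2, a growth-arrest gene linked to the actin cytoskeleton, and Prnp, the prion protein gene, gave -0.59 and -0.49. Tgfb1i1 (chromosome 7, 128246812-128255699) encodes Hic-5, a focal adhesion adaptor known to be induced by TGF-β1. It stood at 27.9, 23.8, 32.5, 26.9 and 29.0 CPM in isotype mice, at 34.6, 23.9, 28.5, 29.6 and 28.9 CPM in anti-PD-1 mice, at 25.1 to 39.1 CPM with anti-GARP and at 18.1 to 24.6 CPM in the combination. All 10 combination mice were below all 10 anti-GARP mice in Tgfb1i1 and in Gas2. The interaction of Tgfb1i1 was -0.42 ± 0.12 (adjusted p = 0.485), and adding anti-PD-1 lowered it by 0.37 log2 with anti-GARP (adjusted p = 0.00656). Des and Mylpf are described with library 52. The interferon-γ activated site, the interferon-stimulated response element and the NF-κB motif were found in 0 of the 4 positive and 6 negative genes of these sets with a RefSeq promoter. The AP-1 motif TGANTCA was found in 0 of these positive genes and in 1 negative gene, Prnp. It was in 6.8% of all promoters of genes tested.

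**Figure D4:**
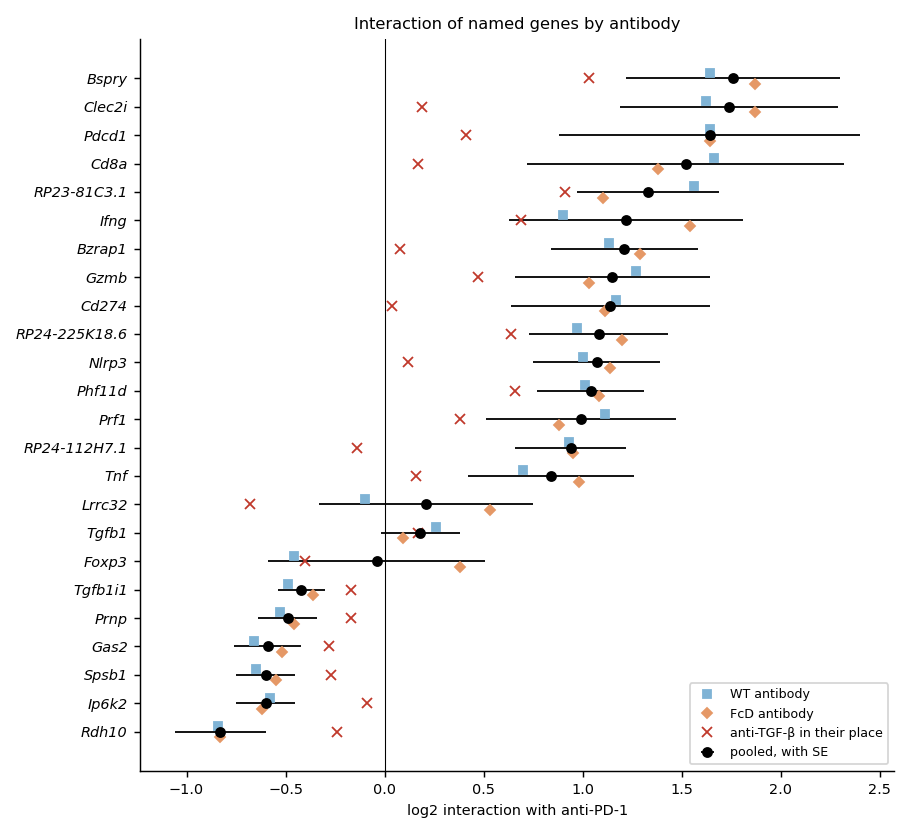
Interaction log2 ± SE for the antibody targets, T cell effector genes and genes of smallest p named in the text (without Des and Mylpf), all mice, with the values from the WT groups alone, the FcD groups alone, and anti-TGF-β in place of anti-GARP:TGF-β1 beside them. The WT and FcD values of Spsb1 (-0.65 and -0.55) and of Nlrp3 (1.00 and 1.14) lie close together, and the anti-TGF-β values are -0.27 and 0.12, and 1.03 for Bspry and 0.66 for Phf11d. The genes of smallest p were chosen on the interaction with anti-GARP:TGF-β1, so that the order of both antibodies in them is no result.

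The wider TGF-β pathway had estimates near 0. Of 24 genes of GARP and the TGF-β pathway, 1 was higher and 1 lower at an unadjusted p under 0.05, shares near the 4.97% and 4.2% of all genes, and the median interaction was 0.04. The higher gene was Nrros, which encodes a relative of GARP that presents latent TGF-β1 on myeloid cells, at 0.67 ± 0.30, and it was 0.10 in libraries 41 to 60, 1.10 in libraries 61 to 80 and 0.44 without library 77. The lower gene was Tgfbr3, the coreceptor betaglycan, at -0.42 ± 0.16, with 73.8 to 89.8 CPM in isotype mice, 80.2 to 98.4 CPM with anti-GARP, 77.1 to 106.0 CPM with anti-PD-1 and 41.7 to 90.4 CPM in the combination. Its combination mice were below every anti-GARP mouse in 6 of 10 cases. The 22 stromal target genes of TGF-β had a median of -0.0092, with 0 past the unadjusted threshold in either direction, and that median was -0.44 in libraries 41 to 60, 0.58 in libraries 61 to 80 and 0.35 without library 47. In libraries 61 to 80 alone, 7 of the 22 were higher, beside 1207 of all 14760 genes, and in libraries 41 to 60 alone 0 were. Fibroblast genes had a median of 0.0096, which was -0.23 in libraries 41 to 60, 0.76 in libraries 61 to 80 and 0.46 without library 47. Endothelial genes had a median of -0.035, with -0.76 and 0.63 in the same parts, 0.25 without library 47 and -0.3 without library 77. Of 25 cell cycle genes 5 were above 0 and the median was -0.10, which was -0.052 without library 77. The 1 lower gene, a share near the 4.2% of all genes, was the replication helicase gene Mcm7 at -0.36 ± 0.16. Of the same genes, 11 fell and 0 rose when anti-PD-1 was added to anti-GARP, beside 11.9% of all genes that fell, and 6 fell without library 77. The glycolysis and hypoxia list had a median of 0.11, which was 0.31 in libraries 41 to 60, -0.17 in libraries 61 to 80 and 0.022 without library 46. Its higher genes were 2 of 22 and ranged from 0 to 4 when each mouse was left out, and they were the hexokinase gene Hk2 at 0.65 and the phosphofructokinase gene Pfkp at 0.47.

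The lowest list medians belonged to skeletal muscle and B cell genes and rested on single libraries. Of 9 skeletal muscle genes tested, 6 were lower at an unadjusted p under 0.05, beside 4.2% of all genes, and the median was -3.50, and without library 52 it was -0.84 with 1 lower. Acta1, skeletal muscle actin, stood at 63.3 CPM in library 52 and between 0.0 and 2.5 CPM in the other 4 anti-PD-1 mice, with 0.0729 to 1.66 CPM in the combination. Des and Mylpf, with interactions of -2.24 and -2.48, were -0.86 and -0.59 without library 52. The mean level of the muscle list was 4.65 log2 CPM in library 52 and -0.217 to 0.887 in the other anti-PD-1 mice. Library 52 was also the highest anti-PD-1 mouse in T cell, cytotoxic and interferon-γ response genes, and its part in the results was measured by leaving it out. Of 14 B cell genes, 4 were lower and the median was -2.40, and without library 47 the median was -0.47. Fcer2a, the low-affinity IgE receptor of B cells, stood at 4.51 CPM in library 47 and at 0.0 to 0.147 CPM in the other anti-PD-1 mice. The adipocyte list had a median of 0.28, which was -0.3 in libraries 41 to 60 and 2.37 in libraries 61 to 80. It was -0.25 without library 46 (isotype), -0.023 without library 52, 0.049 without library 77 and 2.57 without library 47, in which its mean level was 5.52 log2 CPM against 1.32 to 1.89 in the other anti-PD-1 mice. The fatty acid transporter gene Cd36 gave 1.64 ± 0.76. Keratinocyte genes had a median of -0.065, which was -2.13 in libraries 41 to 60, 1.86 in libraries 61 to 80, 1.83 without library 52 and -0.39 without library 77. Mast cell genes had a median of 0.51 with 0 of 11 past the unadjusted threshold, and without library 52 it was 1.43 with 8 higher, beside 10.8% of all genes. The median was 0.24 without library 46, 0.27 without library 77, -0.035 in libraries 41 to 60 and 1.54 in libraries 61 to 80. The part of these tissues in the other results was not tested.

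**Figure D5:**
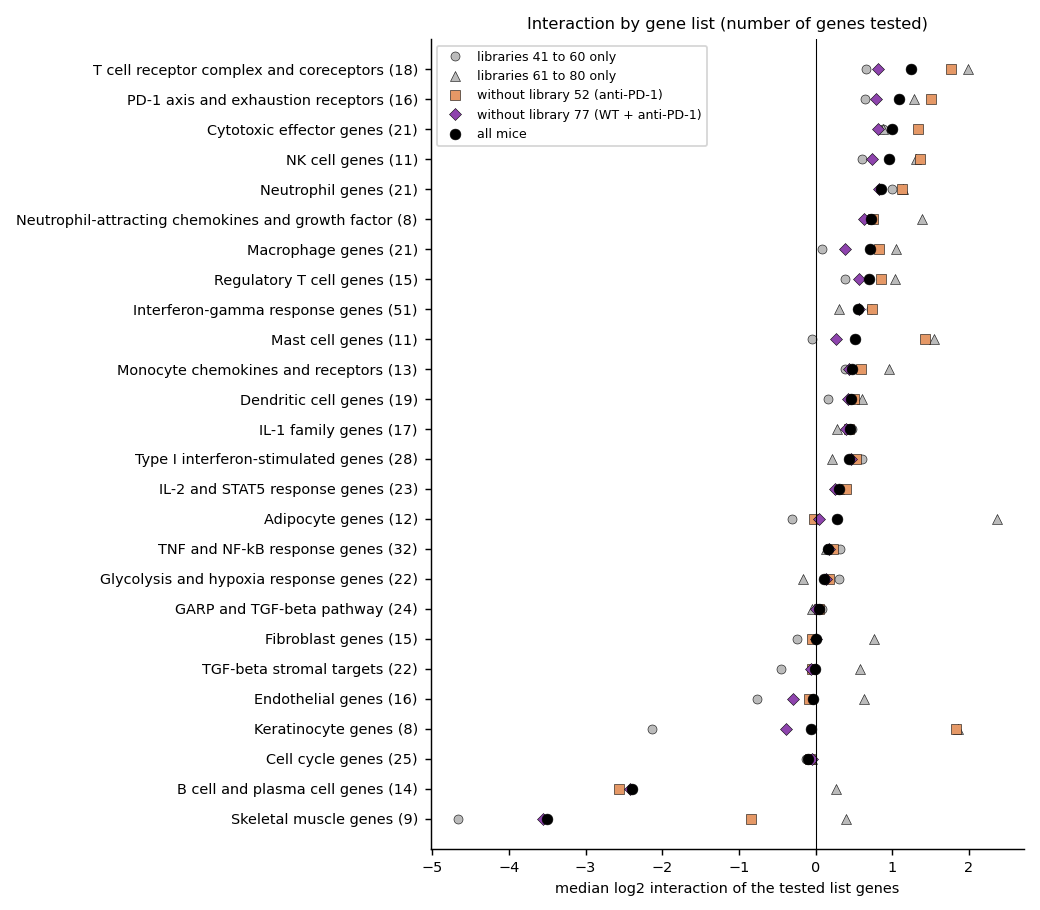
Median interaction (log2) of the tested genes of each list over all mice, within libraries 41 to 60, within libraries 61 to 80, without library 52 and without library 77. The T cell receptor list lies at 0.66 and 1.98 in the 2 parts of the libraries and the muscle list at -4.66 and 0.39.

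The list medians differed between the parts of the libraries as well. The T cell receptor list had a median interaction of 0.66 in libraries 41 to 60 and 1.98 in libraries 61 to 80, and the cytotoxic list 0.89 and 0.88. The exhaustion receptor list had 0.65 and 1.28, and the macrophage list 0.093 and 1.05. The medians of the T cell, exhaustion and macrophage lists were thus higher in libraries 61 to 80, while both interferon lists were higher in libraries 41 to 60. Since no gene passed the test of the difference between the parts, these are descriptions.

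A difference in the interaction between the Fc formats of the anti-GARP antibody was not detectable. The interaction with the WT groups alone had 635 genes higher and 656 lower at an unadjusted p under 0.05, and with the FcD groups alone 361 and 302, and edgeR called 0 after adjustment in both. The order of these counts was not stable, since limma-trend had 552 higher for WT and 605 for FcD, and without libraries 47, 52 and 77 edgeR had 322 and 1300. DESeq2 called 1 gene, Myh1, for WT and 0 for FcD, and limma-trend called 0 for both. These values share their isotype and anti-PD-1 mice. The test of the difference, which holds no shared control mice, called 0 genes by each of the 3 tools and 264 genes (1.79%) at an unadjusted p under 0.05. For Cd274 the WT and FcD values were 1.17 ± 0.58 and 1.11 ± 0.58, and the difference was -0.057 ± 0.57. For Gzmb they were 1.27 and 1.03, with a difference of -0.24 ± 0.56, and for Phf11d 1.01 and 1.08, with a difference of 0.069 ± 0.31. The standard error of the difference for Cd274 was thus larger than that of its pooled interaction, and a difference of that size could not have been resolved. The list medians for WT and FcD were 1.14 and 1.27 for the T cell receptor complex, 0.93 and 0.86 for cytotoxic genes and 0.39 and 0.45 for type I interferon-stimulated genes. Neutrophil genes had 0.52 and 1.48, fibroblast genes -0.33 and 0.53 and adipocyte genes -1.20 and 1.65. The test of the difference had 1 of 21, 5 of 15 and 5 of 12 higher for FcD at an unadjusted p under 0.05. In these lists 0 were lower, and 1.12% of all genes were higher in that test.

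With anti-TGF-β in place of anti-GARP, the interaction had 111 genes higher and 229 lower at an unadjusted p under 0.05. edgeR called 0 after adjustment, limma-trend called 1 (Enox1) and DESeq2 called 2 (Myh1 and Acta1). This interaction uses the same isotype and anti-PD-1 mice as that of anti-GARP. Library 48, a mouse given anti-TGF-β alone, stood apart from its group, with a mean level of 4.26 log2 CPM in neutrophil genes against 1.8 to 2.4 in the other 4 mice, 4.0 against 2.42 to 2.86 in exhaustion receptors and 6.04 against 2.12 to 2.99 in adipocyte genes. The list medians of the anti-TGF-β interaction depended on it. With all mice they were 0.38 for the T cell receptor complex, 0.15 for cytotoxic genes, 0.00078 for exhaustion receptors, 0.36 for interferon-γ response genes, 0.23 for type I interferon-stimulated genes and -0.24 for neutrophil genes. Without library 48, a setting chosen after its levels were seen, they were 0.84, 0.44, 0.44, 0.51, 0.29 and 0.72 in the same order. The anti-GARP values of these lists were 1.24, 0.99, 1.09, 0.55, 0.44 and 0.85.

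The direct test of anti-GARP against anti-TGF-β, free of control mice, called 0 genes by edgeR and limma-trend (smallest edgeR adjusted p 0.0896) and 1075 by DESeq2. By edgeR it called 4603 without library 53 (anti-PD-1 plus anti-TGF-β), and 2823 without library 50 (FcD with anti-PD-1), so that 1 mouse decided whether any gene was called. With all mice, 2743 genes (18.6%) were higher and 2125 (14.4%) lower at an unadjusted p under 0.05, and without library 48 1517 were higher (10.3%). Of the exhaustion receptors, 7 of 16 were higher for anti-GARP with all mice and 1 without library 48. Of the neutrophil genes 7 of 21 were higher with all mice and 1 without library 48, and of the adipocyte genes 8 of 12 and 1. The T cell receptor genes had 2 of 18 higher and 0 without library 48, and the cytotoxic genes 3 of 21 and 1, all at an unadjusted p under 0.05. Of the cell cycle genes 9 of 25 were lower, and 4 without library 48. Cd274 differed by 1.1 ± 0.50 (adjusted p = 0.127).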

How the data were processed

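Tumor mRNA of 40 mice (8 groups of 5) had been sequenced by the authors on a HiSeq2000 after TruSeq stranded library preparation, aligned to GRCm38 with STAR 2.5.3a and counted per gene with HTSeq 0.9.1. The deposited values were raw read counts of 54087 features, of which 31326 had a read and 27 had names turned into dates. Groups were taken from the sample labels, which give each mouse its antibodies and no pairing. P-values measure the spread between the mice of a group.

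Counts were filtered with filterByExpr (14760 genes), scaled by TMM and tested with edgeR 4.0.16 (R 4.3.3), the quasi-likelihood F-test with robust dispersion, in 1 model of all 8 groups. The interaction and its sides were contrasts of group means, with WT and FcD weighted equally. Benjamini-Hochberg adjustment ran over all genes, and the threshold was an adjusted p of 0.05. Log2 CPM used a prior count of 2. DESeq2 1.42.0 and limma 3.58.1 were alternatives, as were other size factors, no filter, the parts of the libraries and leaving out each mouse. The code was tested on simulated data.

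Named genes were the 10 targets and effectors Lrrc32, Tgfb1, Foxp3, Pdcd1, Cd274, Cd8a, Ifng, Tnf, Prf1 and Gzmb, the 8 positive and 8 negative genes of smallest interaction p with a mean of at least 0 log2 CPM, and the 2 members of smallest p of each of 26 lists. One of these genes is not reported here, and others are covered by the counts of their lists. The members, lists and tests were chosen with earlier results of these data known. Coordinates are GENCODE's for GRCm38, found for 72 of 76 named genes. Features with clone names can overlap other genes and are uncertain.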

Additional observations from a re-analysis of the deposited data

Results flagged for a closer look

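Within a group of 5 mice, a mouse was singled out where its gap to the nearest other mouse, divided by the range of the group, exceeded 0.71. This was so for 28 of 208 combinations of list and group, and chance gives about 1 in 20. Values are mean log2 CPM of the list.

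Library 52 (anti-PD-1) was singled out as the highest of its group in 5 lists. It stood at 2.91 in T cell receptor genes against 0.9 to 1.45 in the other anti-PD-1 mice, at 2.21 in regulatory T cell genes against 1.03 to 1.37, and at 4.65 in skeletal muscle genes against -0.217 to 0.887. In macrophage genes it stood at 6.84 against 6.29 to 6.33, and in monocyte genes at 6.73 against 6.11 to 6.25. Library 47 (anti-PD-1) was singled out as the highest in adipocyte genes at 5.52 against 1.32 to 1.89, in endothelial genes at 4.16 against 3.17 to 3.4, and in stromal TGF-β targets at 6.9 against 5.78 to 6.04.

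Among the FcD mice, library 75 was the lowest in exhaustion receptors at 1.73 against 2.66 to 2.95, in cytotoxic genes at 1.86 against 3.05 to 3.38, and in NK cell genes at 1.02 against 1.61 to 1.81, and library 70 was the highest in B cell genes at 2.41 against -0.426 to 0.363. Among the WT mice, library 42 was the highest in muscle genes at 1.92 against -0.203 to 0.0308. Library 65 of that group was the highest in keratinocyte genes at -0.282 against -1.33 to -1.18 and the lowest in mast cell genes at 2.81 against 3.38 to 3.5.

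In the combination groups, library 44 (FcD with anti-PD-1) was the highest in cytotoxic genes at 4.72 against 3.24 to 3.57. Library 50 of the same group was the lowest in mast cell genes at 3.26 against 4.18 to 4.47, and library 77 (WT with anti-PD-1) was the highest in TNF and NF-κB response genes at 5.29 against 5.01 to 5.08.

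Of the mice given anti-TGF-β alone, library 48 was singled out as the highest of its group in 9 lists. It stood at 4.26 in neutrophil genes against 1.8 to 2.4, at 4.0 in exhaustion receptors against 2.42 to 2.86, at 7.55 in macrophage genes against 6.19 to 6.54, and at 7.43 in monocyte genes against 6.32 to 6.41. It stood at 5.45 in IL-1 family genes against 4.57 to 4.64, at 5.0 in IL-2 and STAT5 response genes against 4.37 to 4.49, at 3.39 in B cell genes against -0.704 to 0.286, at 4.66 in endothelial genes against 3.11 to 3.3, and at 6.04 in adipocyte genes against 2.12 to 2.99. Library 68, given anti-PD-1 plus anti-TGF-β, was the highest of its group in B cell genes at 4.47 against -0.123 to 0.229.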

How the results depend on the processing

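No gene passed the adjusted threshold for the interaction in any of the 30 fits that left out 1 mouse, and DESeq2 called 1 (Myh1). The cause of the changes below was not tested. The genes higher at an unadjusted p under 0.05 (733) were 1124 without a filter, 160 in libraries 41 to 60 alone, 1207 in libraries 61 to 80 alone and 1111 without libraries 47 and 52, and the lower genes (620) were 1000 without a filter and 198 in libraries 41 to 60. Leaving out 1 mouse, higher genes ranged from 324 (without library 47 or 54) to 1600 (without 52), with 422, 373, 1200 and 1146 without 51, 77, 50 and 55. Lower genes ranged from 273 (without 47) to 1427 (without 50), with 403, 393, 408, 1281, 1162 and 965 without 54, 46, 51, 52, 63 and 55. For anti-PD-1 added to anti-GARP (4039 calls) there were 2615 calls without a filter, 0 in libraries 41 to 60 and 2040 without libraries 47, 52 and 77, and leaving out 1 mouse gave 1547 (without 77) to 6084 (without 50), with 2275, 2378 and 2408 without 71, 73 and 44. For anti-GARP added to anti-PD-1 there were 3 calls without a filter, 11 by DESeq2 and 0 to 842 leaving out 1 mouse (842 without 52). DESeq2 called 1 gene for each single antibody, and for anti-GARP against anti-TGF-β 1075, where libraries 61 to 80 gave 2405 and leaving out 1 of 40 mice gave 0 to 4603 (4603 without 53, 2823 without 50, 1 without 51). The difference between Fc formats stayed at 0 calls leaving out 1 mouse.

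Of 1064 interaction values of named genes, 1047 kept their sign, and none passed adjustment. Apart from the 10 targets and effectors, these genes were chosen by small p, which favors a kept sign. Of the fits that left out 1 mouse, only the lowest and the highest value of each gene were counted. In libraries 41 to 60 the sign turned for Lrrc32 (-0.24), Tgfb1 (-0.16), Eng (-0.21), Pecam1 (-0.2), Trp63 (-1.71) and Dsp (-1.14), and in libraries 61 to 80 for Des (0.12), Ccl2 (-0.069) and Acta1 (0.97). Leaving out 1 mouse, Lrrc32 ranged from -0.055 (without library 77) to 0.42 (without 47). Foxp3 was 0.18 by limma, 0.13 with the library part as covariate, 0.25 with both, 1.03 in libraries 61 to 80, 0.64 without libraries 47 and 52, 0.61 without 47, 52 and 77, and -0.37 (without 46) to 0.3 (without 52) leaving out 1 mouse. No paired analysis was possible because the labels carry no replicate numbers. Fits without libraries 47, 52 or 77 together were chosen after seeing the data.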
